A study of Mus musculus with 6 samples.

Results

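Rnaset2a, Rnaset2b, Rsph3a and Rsph3b are 4 genes that form a pair of near-identical copies each on mouse chromosome 17, and they were picked by symbol from the 13642 genes of a table of transcript levels in long-lived plasma cells. The pairs were selected on their old and young levels in these same libraries, Rnaset2a being high in old and Rsph3a in young cells, so every old-against-young value of the 4 genes below is a description and has no test. Levels are FPKM, fragments scaled to gene length and library size, as the authors deposited them. All 4 genes passed the filter of a mean of at least 1 FPKM over the 6 libraries, as did 10687 genes in all.

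Long-lived plasma cells are antibody-secreting cells that no longer divide and persist in bone marrow, and the study asked how they bear on the output of myeloid cells in ageing marrow. The young group held 3 libraries from female C57BL/6J mice of 2 to 3 months, supplied by the Jackson Laboratory or by an animal facility at UCLA. The old group held 3 libraries from male C57BL/6J mice of 17 to 19 months, supplied by the colony of the National Institute on Aging. Neither group carried a transgene or a treatment in the labels, and age, sex and supplier cannot be told apart. In both groups the sort kept cells high for CD138 and dropped those with B220 or IgD, with a T cell receptor of either kind, or with Gr-1 or CD11b. A stranded total-RNA kit turned 5 ng of RNA per sample into PCR-amplified cDNA, which was read from both ends over 150 bases. No label says that libraries came from separate animals, so a p-value here measures only how these samples spread, and that spread may be technical. In such bulk samples fewer cells of a type and less RNA per cell cannot be told apart.

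The low values of the table gave approximate depths of 22.3 to 25.2 M reads in young and 26.8 to 28.0 M reads in old libraries. Between 8934 and 10664 genes were above 0 in young libraries and between 11310 and 12049 in old ones. The old libraries were thus broader and, by these approximate depths, deeper. The 8 plasma cell markers, among them Sdc1, Prdm1, Xbp1 and Jchain, were all measured and summed to 19700 to 23100 FPKM in young libraries. The same sum was 22500, 22800 and 8960 FPKM in old replicates 1 to 3, lowest in old replicate 3. It had the highest sums of the monocyte, T and NK cell, erythroid, eosinophil and basophil, and megakaryocyte lists. In each of the 10 marker lists the groups overlapped.

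RNase T2, the product of the Rnaset2 genes, is an acid ribonuclease of the endolysosome that is known to cut RNA taken up or delivered there, and in human cells it prepares RNA fragments that are read by the sensor TLR8. Rsph3 is a protein of the radial spoke, the T-shaped structure that joins the outer microtubule doublets of a motile cilium to its central apparatus, and loss of human RSPH3 causes primary ciliary dyskinesia. Plasma cells carry endolysosomes but are not known for motile cilia. Mice have an a and a b copy of each gene.

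On GRCm38, by the GENCODE M21 annotation, the b copies lie together. Rsph3b spans chr17:6904413-6948682 on the minus strand, and Rnaset2b follows at chr17:6970634-7011299 on the plus strand, 21951 bases away. Rsph3a spans chr17:7945614-7979824 on the plus strand and Rnaset2a spans chr17:8115445-8148097 on the minus strand, with 135620 bases between them. The Rnaset2 copies are 1.10 Mb apart and the Rsph3 copies 1.00 Mb apart. Another gene is doubled with them, since Tagap1 lies between the b copies and its relative Tagap lies beside Rsph3a. Each copy is thus in the opposite orientation to its partner, as the map of gene order shows.

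**Figure D1:**
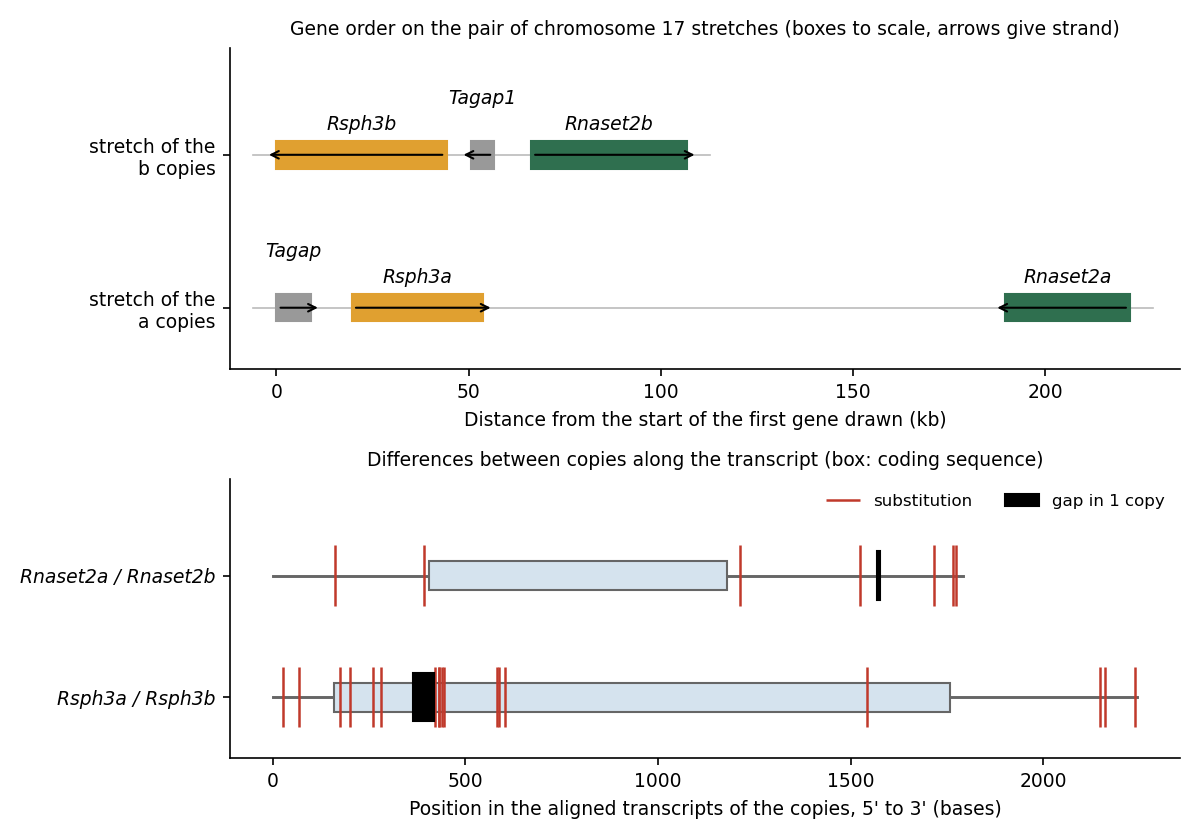
Upper panel: genes of the stretches that hold the b copies and the a copies, drawn to scale in kb from the first gene, with arrows for the strand. Lower panel: positions in bases of the differences between copies along the aligned transcripts, where the Rnaset2 coding box holds 0 substitutions and the Rsph3 coding box holds 13 with a 54-base gap.

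How far reads can separate the copies depends on their sequences, so these come before the levels. The coding sequences of Rnaset2a-201 and Rnaset2b-201 are identical at all 777 bases, over 9 exons. Their first 150 coding bases are shown because they stand for a read that fits both copies equally well. They are read 5′ to 3′ from the start codon on GRCm38, across exons, from chr17:8145554-8147694 on the minus strand for Rnaset2a and from chr17:6978998-6981156 on the plus strand for Rnaset2b. There are no capitals because no base differs.
Rnaset2a: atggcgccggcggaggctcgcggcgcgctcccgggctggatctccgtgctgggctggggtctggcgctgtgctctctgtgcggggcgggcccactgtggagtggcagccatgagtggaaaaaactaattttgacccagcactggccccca
Rnaset2b: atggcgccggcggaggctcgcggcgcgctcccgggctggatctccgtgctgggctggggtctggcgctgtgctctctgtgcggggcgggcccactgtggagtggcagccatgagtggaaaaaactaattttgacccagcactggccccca
The transcripts differ at 7 substitutions and at a single gap of 10 bases, all outside the coding sequence. Of these, 2 substitutions lie in the 403 bases before it and 5, with the gap, in the 613 bases after it. The transcripts are 99.1% identical over 1793 aligned bases.

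The Rsph3 copies differ more. Rsph3a-201 codes for 516 residues and Rsph3b-202 for 534, and the difference is a single stretch of 54 bases, 18 codons, that Rsph3a lacks. A shorter annotated model, Rsph3b-201, starts its coding sequence further 3′ and was not used. Outside the gap the coding sequences differ at 13 substitutions and are 99.2% identical, and with the gap they are 95.8% identical. Of the 13 substitutions, 12 lie in exon 1 and 8 lie in codons whose residue differs between the copies. The region around the gap is shown because it holds the extra codons and the densest run of substitutions. It is read 5′ to 3′ from chr17:7945957-7946076 on the plus strand for Rsph3a and from chr17:6948205-6948378 on the minus strand for Rsph3b, in exon 1, with differing bases and the extra codons in capitals.
Rsph3a: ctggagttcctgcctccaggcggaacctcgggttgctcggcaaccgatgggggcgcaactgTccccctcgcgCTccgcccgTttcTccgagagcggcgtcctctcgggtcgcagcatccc
Rsph3b: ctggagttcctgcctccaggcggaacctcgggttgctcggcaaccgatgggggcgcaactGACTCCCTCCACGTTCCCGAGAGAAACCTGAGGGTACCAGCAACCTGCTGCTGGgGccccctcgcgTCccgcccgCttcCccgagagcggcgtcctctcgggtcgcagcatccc
Counted from the A of the Rsph3a start codon, with the base of Rsph3a first, the substitutions in that stretch are T209G, C220T, T221C, T229C and T233C. Each lies in a codon whose residue differs, and C220T and T221C share a codon. The last differences of exon 1 are shown because the shared part of the transcript begins after them. They are read from chr17:7946149-7946231 on the plus strand for Rsph3a and from chr17:6948050-6948132 on the minus strand for Rsph3b.
Rsph3a: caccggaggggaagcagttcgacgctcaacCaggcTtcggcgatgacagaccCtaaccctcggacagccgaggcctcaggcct
Rsph3b: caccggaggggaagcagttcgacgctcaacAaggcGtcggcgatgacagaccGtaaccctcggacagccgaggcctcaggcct
These are C370A, T375G and C392G. The next difference is C1332T in exon 8, and the 939 coding bases between C392G and C1332T are the same in both copies.

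Cut into windows of the read length, 150 bases, 56.3% of the Rnaset2a transcript and 56.6% of the Rnaset2b transcript occur unchanged in the other copy, and within the coding sequence 100% do. For Rsph3a the share was 61.0% and for Rsph3b 59.4%. A read over one of the differences can tell the copies apart, and a read from the long shared stretches cannot. The windows stand for single reads. Fragments were read from both ends, so the other read may cover a difference, and these shares can overstate the fragments that fit both copies. How reads that fit both copies were counted is not given in the sources used here, so the level of each copy is uncertain. The sum of a pair is less so, although it too would miss shared reads that were dropped. Annotated neighbours overlap as well. Gm49673 and Gm49721 share exons and strand with Rnaset2a and Rnaset2b, E430024P14Rik runs antisense over 813 bases of the Rsph3a span, and Gm49719 runs antisense over 237 bases of the Rsph3b span. The strand setting of the counting is not given, so reads of the antisense partners cannot be told apart from those of the Rsph3 genes.

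Rnaset2a stood at 1.50, 1.61 and 0.363 FPKM in young replicates 1 to 3 and at 81.7, 61.4 and 32.2 FPKM in old replicates 1 to 3. Every old library was above every young one, and even the lowest old value was 19.9 times the highest young one. The mean was 1.16 ± 0.692 FPKM in young and 58.4 ± 24.9 FPKM in the old group (SD, n = 3 each). On the log2(FPKM + 1) scale, which understates changes of low genes, old minus young was 4.74 with a standard error of 0.65. By the approximate depth and the annotated exon length, the young values stood for about 27 to 136 reads and the old values for about 2925 to 7329. Of the 10687 genes tested, 938 (8.78%) had every old library above every young one, and since Rnaset2a was chosen on this contrast nothing is read from its place among them.

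Rnaset2b, the copy with the same coding sequence, had another pattern. Its young libraries stood at 0.348, 26.0 and 3.03 FPKM, and its old libraries at 1.94, 1.47 and 10 FPKM. The groups overlapped, with the lowest and the highest value both in the young group, and young replicate 2 alone was above every old library. Means were 9.80 ± 14.1 FPKM in young and 4.47 ± 4.80 FPKM in the old group (SD, n = 3 each), and the log2 difference of -0.29 was smaller than its standard error of 1.18. Its sign turned without young replicate 2, to 0.89, and without old replicate 2, to 0.11.

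Rsph3a, which codes for the shorter spoke protein, stood at 48.0, 14.7 and 184 FPKM in the young group and at 0.211, 3.33 and 1.14 FPKM in the old group. Every old library was below every young one, and the lowest young value, in replicate 2, was 4.41 times the highest old value, in replicate 2 as well. The mean was 82.2 ± 89.7 FPKM in young and 1.56 ± 1.60 FPKM in the old group (SD, n = 3 each), so the SD of the young libraries was above their mean. Old minus young was -4.54 on the log2 scale with a standard error of 0.93. The young values stood for about 1114 to 12394 reads and the old values for about 17 to 281. Of all genes tested, 366 (3.42%) had every old library below every young one, and Rsph3a was chosen as such a gene. In young replicate 3 its level was above that of 98.5% of all genes in the table, and in old replicate 3 above that of 25.2%.

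Rsph3b, with the 18 extra codons, stood at 6.66, 51.9 and 0 FPKM in the young group and at 22.0, 57.4 and 0 FPKM in the old group. The groups overlapped throughout: replicate 2 was highest and replicate 3 was listed at 0 in both. A value of 0 allows up to 3 reads, which is 0.0431 FPKM in young replicate 3 and 0.0354 FPKM in old replicate 3 and covers counting error alone. Old minus young was 0.58 on the log2 scale with a standard error of 1.65, and without single libraries it lay between -0.87, without young replicate 3, and 2.31, without old replicate 3.

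**Figure D2:**
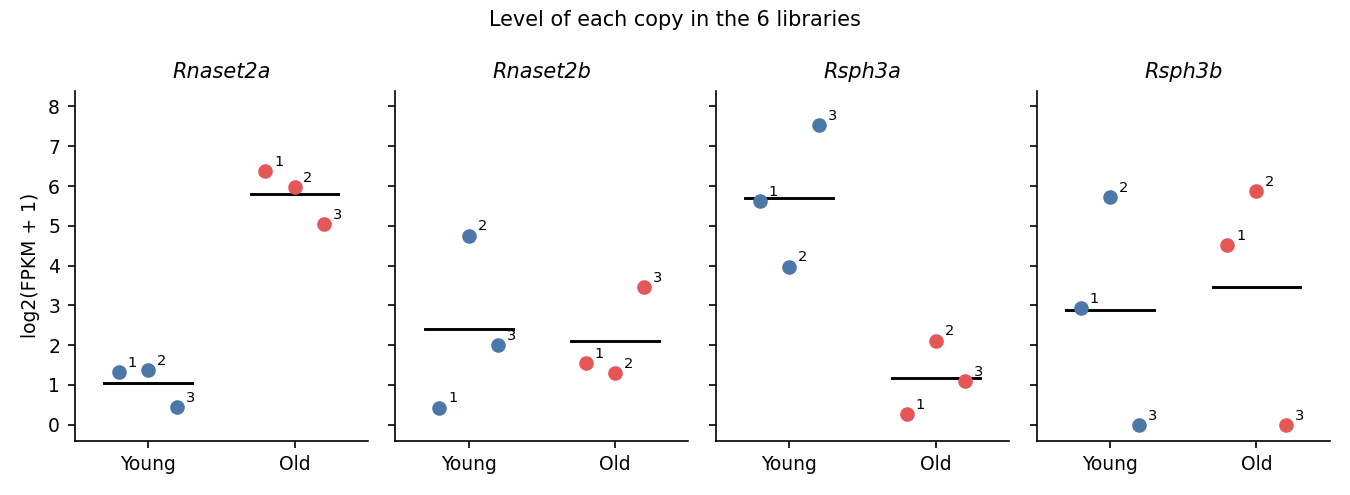
Level of each copy in each library as log2(FPKM + 1), with numbers for the replicates and lines for the group means of the 3 libraries. Young and old libraries are apart for Rnaset2a (log2 difference 4.74) and Rsph3a (-4.54) and overlap for Rnaset2b and Rsph3b.

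The spread of the 4 genes over the 6 libraries restates in part the values they were chosen on, and nothing is read from its place among all genes. The distance from the lowest to the highest library was 7.26 for Rsph3a, 5.92 for Rnaset2a, 5.87 for Rsph3b and 4.33 for Rnaset2b, all on the log2(FPKM + 1) scale. These ranges exceeded those of 99.8%, 98.6%, 98.4% and 89.3% of the genes tested. For each b copy the lowest and the highest value both occurred within a single group, the young group for Rnaset2b and the old group for Rsph3b.

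Summing the copies takes out much, but not all, of how shared reads were divided. FPKM is scaled to gene length, so a shared read adds more to the sum when given to the shorter copy. The annotated exon lengths were 3343 bases for Rnaset2a and 4455 for Rnaset2b, and 3014 for Rsph3a and 3114 for Rsph3b. The Rnaset2 sum was 1.85, 27.6 and 3.39 FPKM in young and 83.6, 62.9 and 42.2 FPKM in old libraries. The old libraries were still above the young ones, but the Rnaset2b value of young replicate 2 brought the lowest old sum to 1.52 times the highest young sum, against 19.9 for Rnaset2a alone. The mean sum was 11.0 ± 14.5 FPKM in young and 62.9 ± 20.7 FPKM in the old group (SD, n = 3 each), 5.74 times as high, with a log2 difference of 3.11.

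The Rsph3 sum was 54.7, 66.6 and 184 FPKM in young and 22.2, 60.8 and 1.14 FPKM in old libraries. Here the groups overlapped, since old replicate 2 was above young replicate 1. The mean sum was 102 ± 71.5 FPKM in young and 28.0 ± 30.2 FPKM in the old group (SD, n = 3 each), with a log2 difference of -2.61, which was -1.23 without old replicate 3. The separation of the groups in Rsph3a was thus not present in the sum, and in old replicate 2, the library that overlapped, Rsph3b made up 94.5% of the pair.

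**Figure D3:**
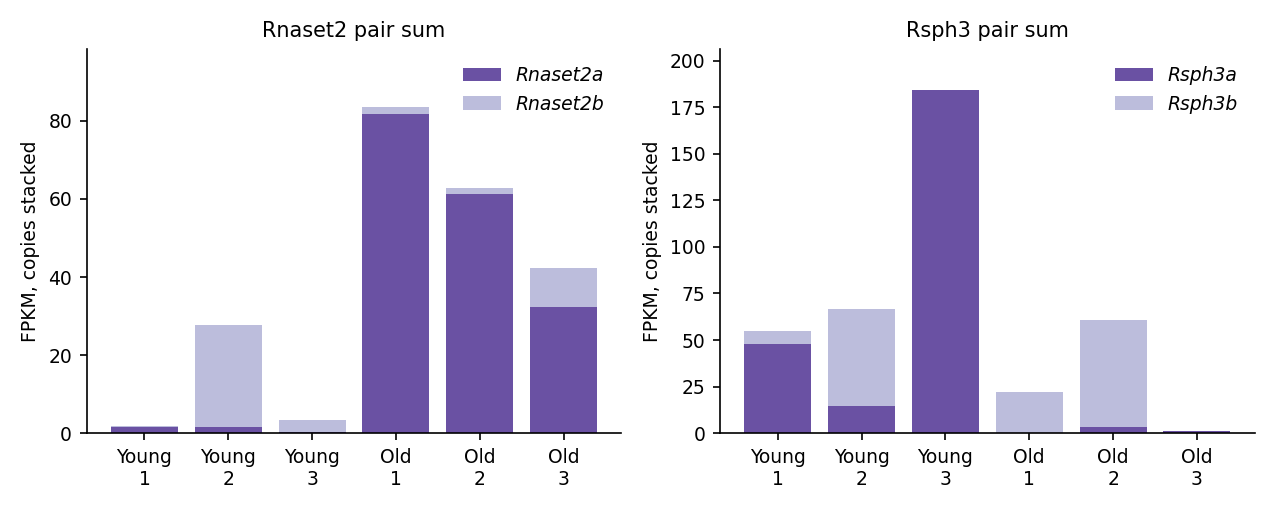
FPKM of the a copy and of the b copy stacked in each library, for Rnaset2 on the left and Rsph3 on the right. The Rnaset2 sums of the old libraries (42.2 to 83.6 FPKM) lie above those of the young ones (1.85 to 27.6), while the Rsph3 sums of old (1.14 to 60.8) and young (54.7 to 184) overlap.

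The share of each copy in its pair varied from nearly none to nearly all. Rnaset2a made up 81.2%, 5.83% and 10.7% of the Rnaset2 sum in the young group and 97.7%, 97.7% and 76.3% in the old group. It was the higher copy in all 3 old libraries and in 1 young library, replicate 1, whose share lay above that of old replicate 3, so the groups overlapped. That young library had the lowest Rnaset2 sum of all, 1.85 FPKM. Mean shares were 32.6% ± 42.2 in young and 90.5% ± 12.4 in the old group (SD, n = 3 each), and taken over the summed FPKM of each group they were 10.6% and 92.9%.

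Rsph3a made up 87.8%, 22.1% and 100% of the Rsph3 sum in the young group and 0.951%, 5.48% and 100% in the old group. It was the higher copy in young replicates 1 and 3 and in old replicate 3, and Rsph3b was the higher one in the other 3. Both shares of 100% came from libraries with Rsph3b at 0, but one rested on a sum of 184 FPKM and the other on 1.14 FPKM. Mean shares were 70.0% ± 41.9 in young and 35.5% ± 55.9 in the old group (SD, n = 3 each), a difference of -34.5 percentage points that is smaller than either SD. Weighting by exon length, to approximate shares of reads, gave a difference of -34.2 points for Rsph3 and 58.5 points against 57.9 for Rnaset2.

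The higher copies lay on the same stretch in only part of the libraries, and 6 libraries cannot say whether the pairs switch together. Some of these calls rest on low sums, 1.85 FPKM for Rnaset2 in young replicate 1 and 1.14 FPKM for Rsph3 in old replicate 3. In 3 of 6 libraries the higher Rnaset2 copy and the higher Rsph3 copy lay on the same stretch, both a in young replicate 1 and old replicate 3 and both b in young replicate 2. In old replicates 1 and 2 Rnaset2a and Rsph3b were the higher copies, and in young replicate 3 Rnaset2b and Rsph3a were.

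**Figure D4:**
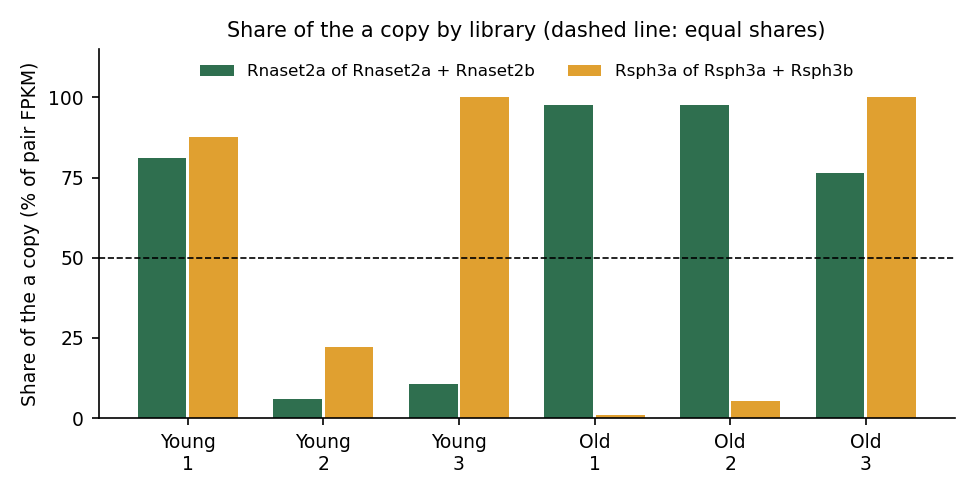
Share of the a copy in the FPKM of its pair, in percent, for each library, with green bars for Rnaset2a and orange bars for Rsph3a. Rnaset2a exceeds 50% in all old libraries (76.3% to 97.7%), and Rsph3a ranges from 0.951% to 100% within the old group.

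To see how variable such shares are elsewhere in these libraries, all other pairs of genes in the table were taken whose translated coding sequences were at least 95% identical over at least 95% of both lengths and whose sum averaged at least 1 FPKM. There were 257 such pairs, chosen by sequence and level alone. Many of them combine members of the same histone families, as do most of those with a range at least as wide as that of Rnaset2. Genes recur among the pairs, so the pairs are not independent. Over the libraries in which a pair had a sum above 0, the share of a copy ranged over a median of 54.0 percentage points. Some pairs had fewer than 6 such libraries, for example 3 for Oas1a with Oas1g. Gm8879 with Gm8906 had 1, so its range is 0 by construction. Rnaset2 and Rsph3 had all 6. For Rnaset2 the range was 91.8 points, and 62 of the 257 pairs (24.1%) had a range at least as wide. For Rsph3, which the length rule left out because of its 18 extra codons, the range was 99.0 points, which 36 pairs reached. The higher copy changed between libraries in 140 pairs (54.5%). Among the 132 pairs on a shared chromosome the median range was 74.3 points, 40 pairs (30.3%) reached that of Rnaset2 and 84 (63.6%) changed their higher copy. Pairs with a mean sum of at least 20 FPKM gave much the same values, with a median of 53.5 points over 212 pairs. In 22 pairs the range rounded to 100 points. The 5 of these with the highest mean sum were all of histone genes, Hist1h2bk with Hist1h2bg, Hist1h2bc, Hist1h2bp or Hist2h2be, and Hist1h3b with Hist1h3d, and non-histone pairs such as Oas1a with Oas1g, named after their values were seen, were among the 22. A change of the higher copy between libraries was thus common among these close pairs, many of them of histone genes. How common it was among pairs outside the histone families was not counted.

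**Figure D5:**
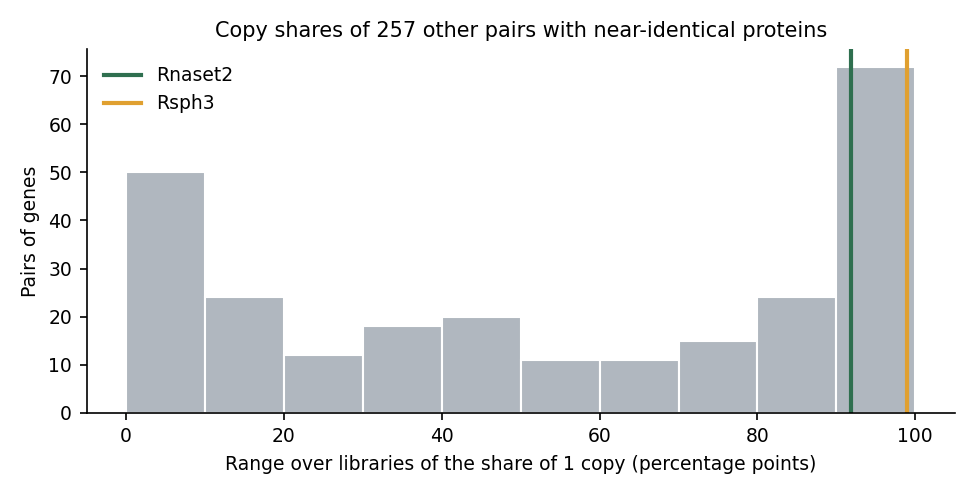
Histogram of the range of the share of a copy, in percentage points, for 257 other pairs with near-identical proteins, many of histone genes, with lines at the ranges of Rnaset2 (91.8) and Rsph3 (99.0). Each range covers the libraries with a pair sum above 0, which were fewer than 6 for some pairs. The pairs pile up at both ends, with 62 at or beyond the Rnaset2 line.

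The other doubled gene of the region gives a comparison at the same place. Tagap and Tagap1, named for a GTPase-activating protein of activated T cells, differ more in coding sequence than the Rnaset2 and Rsph3 pairs, with 25 gaps of 635 bases in all. They are 98.1% identical outside the gaps and 69.1% with them. Tagap stood at 0.165, 0 and 0 FPKM in young and at 2.37, 18.0 and 1.94 FPKM in old libraries. Tagap1 stood at 20, 31.8 and 28.4 FPKM in young and at 20.9, 19.1 and 43.9 FPKM in old libraries. The old libraries were all above the young ones for Tagap, with a log2 difference of 2.45 (limma adjusted p = 0.827), while Tagap1 overlapped between the groups with -0.00981 (limma adjusted p = 0.999). Tagap1 stayed the higher copy in all 6 libraries, with Tagap at 48.6% of the sum in old replicate 2 and at most 10.2% in the others. Fgfr1op, which lies beyond Rnaset2a, and Rps6ka2, which lies beyond Rnaset2b, overlapped between the groups. Fgfr1op, a centrosomal protein gene, ranged from 0.506 to 27.8 FPKM in young and from 3.70 to 17.1 FPKM in old libraries. Rps6ka2, a ribosomal S6 kinase gene, ranged from 10.1 to 23.4 FPKM in young and from 3.54 to 17.9 FPKM in old libraries.

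The list of chromosome 17 neighbours reaches beyond the span from Rsph3b to Fgfr1op, and Sod2, Tmem181a, Dynlt1c and Gtf2h5 lie outside that span. The list is thus not a measure of the pair region alone, and 26 of its 29 genes in the table could be tested. By limma with Benjamini-Hochberg adjustment 0 rose and 0 fell, where the background over all genes tested was 0 called (0.00%), with 632 at an unadjusted p under 0.05. Old minus young was above 0 for 18 and below 0 for 8 of these neighbours, with a median log2 difference of 0.56 against 0.23 over all genes tested. Old libraries were all above young ones for 4 of them, Tagap, Tmem181a, Dynlt1c and Gtf2h5, and below for 0, beside 8.78% above and 3.42% below among all genes tested. Gtf2h5, a subunit of the transcription and repair factor TFIIH, stood at 0.227, 2.17 and 0 FPKM in young and at 8.35, 3.76 and 3.98 FPKM in old libraries. Tmem181a, a transmembrane protein gene, stood at 7.83, 0.0643 and 2.43 FPKM in young and at 10.9, 8.11 and 7.90 FPKM in old libraries. Sod2, the superoxide dismutase of mitochondria, ranged from 0.0143 to 29.7 FPKM in young and from 16.9 to 40.9 FPKM in old libraries, and the groups overlapped.

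Around RNase T2, the list of endolysosomal nucleases, nucleic acid sensors and their helpers had 29 of 32 genes in the table and 25 tested. Of these 0 passed the test in either direction, as did 0 of all 10687 genes tested. The median log2 difference was 0.14, against 0.23 over all genes tested, with 16 above 0 and 9 below. In 2 of the 25 every old library was below every young one and in 0 above, beside 3.42% and 8.78% of all genes tested. Acp5, a lysosomal acid phosphatase, stood at 27.6, 25.7 and 22.9 FPKM in young and at 7.58, 2.02 and 1.49 FPKM in old libraries, a log2 difference of -2.72 ± 0.68 (SE, limma adjusted p = 0.657). Unc93b1, which carries nucleic acid sensing Toll-like receptors to endosomes, averaged 219 ± 44.0 FPKM in young and 139 ± 30.2 FPKM in old libraries (limma adjusted p = 0.839). Pld4, a lysosomal exonuclease, stood at 24.5, 19.4 and 0.517 FPKM in young and at 16.3, 47.0 and 52.6 FPKM in old libraries, and its groups overlapped. Another ribonuclease of the list, Rnase6, was much more abundant per kilobase than either Rnaset2 copy, at 288 to 678 FPKM in young and 441 to 696 FPKM in old libraries, and was named after its values were seen.

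Of 20 other radial spoke genes listed, 10 were in the table and 6 were tested. Of the 6, 0 passed the test, as did 0 of all 10687 genes tested. Their median log2 difference was 0.60, against 0.23 over all genes tested. Rsph9, a protein of the spoke head, stood at 0.381, 10.2 and 15.5 FPKM in young and at 2.12, 2.17 and 3.05 FPKM in old libraries. Rsph10b, also named for the spoke, reached 0.859 FPKM in young and 5.57 FPKM in old libraries at most. Dnajb13, a chaperone-like spoke protein, ranged from 0.307 to 23.2 FPKM in young and from 6.99 to 19.6 FPKM in old libraries. Cyb5d1, which associates with the spoke, ranged from 1.92 to 55.3 FPKM in young and from 24.8 to 50.9 FPKM in old libraries. In all 4 the groups overlapped, as they did in Rsph1, another spoke head protein, which reached 72.6 FPKM in young replicate 3 and was named after its values were seen.

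Of the 21 genes listed for the structure and control of motile cilia, 16 were in the table and 10 were tested. Of the 10, 0 passed the test, as did 0 of all 10687 genes tested. Their median log2 difference was 0.85, against 0.23 over all genes tested. Spag1, which helps to assemble dynein arms, was at 0.141, 0 and 1.13 FPKM in young and at 9.95, 7.05 and 2.65 FPKM in old libraries, without overlap, the single such gene of the 10 (8.78% of all genes tested had old above young; log2 difference 2.35, limma adjusted p = 0.772). Ift88, of intraflagellar transport, reached 1.08 FPKM in young and 6.28 FPKM in old libraries. Tekt2, a tektin, was at 11.1 FPKM in old replicate 2 and at or below 0.0367 FPKM elsewhere. Ccdc40, a ruler of the axoneme repeat, ranged from 0.0124 to 2.05 FPKM in young and from 1.19 to 3.28 FPKM in old libraries.

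Each gene was compared with all others tested by the root mean square difference of their log2(FPKM + 1) values over the 6 libraries, after taking out the mean of each gene. For Rnaset2a and Rsph3a this restates the values they were chosen on. A gene near 0 in every young library and high in every old one will tend to lie near Rnaset2a, so nothing is read from which genes do. Nearest to Rnaset2a were Zfp617 at 0.404, Ddx3y at 0.539 and Uqcc3 at 0.561, beside a deviation of 2.42 for Rnaset2a itself. Ddx3y is a gene of the Y chromosome, at 0.00779, 0 and 0 FPKM in the female young libraries and at 39.4, 25.2 and 34.4 FPKM in the male old ones. The part of sex in the Rnaset2a values cannot be told apart from that of age. Nearest to Rnaset2b were Slc16a10 at 0.437, Pdxk at 0.459 and Drc7 at 0.480, beside a deviation of 1.44 for Rnaset2b. Nearest to Rsph3a were Pmvk at 1.10, Letmd1 at 1.18 and 6720489N17Rik at 1.21, beside a deviation of 2.55, a wider distance than for the other 3 genes.

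Nearest to Rsph3b were Phf11b at 0.736, S100a8 at 0.867 and Camp at 0.993, beside a deviation of 2.44. S100a8 and Camp are granulocyte genes, although the sort removed cells with Gr-1 or CD11b. S100a8 stood at 50.3, 81.5 and 0.148 FPKM in young and at 29.1, 74.2 and 1.03 FPKM in old libraries, lowest in replicate 3 of both groups as Rsph3b was. The whole neutrophil list, with all 10 genes measured and none at 0 in every library, summed to 361 to 563 FPKM in young and 263 to 1270 FPKM in old libraries. It was not lowest in the libraries without Rsph3b, at 414 FPKM in young replicate 3 and 943 FPKM in old replicate 3, but its genes were split. Camp, at 0.134 and 0.164 FPKM, and Ngp, at 39.2 and 38.4 FPKM, were lowest in replicate 3 of both groups like S100a8, whereas Elane, Mpo, Prtn3 and Ctsg were highest in old replicate 3, at 220, 264, 86.2 and 282 FPKM. S100a9 and Ltf were lowest of the old libraries in replicate 3, at 40.2 and 3.43 FPKM. In young replicate 3 they were instead highest of the young libraries, at 324 and 15.9 FPKM. Mmp8 was lowest in young replicate 2, at 0.0336 FPKM, and in old replicate 1, at 4.13 FPKM. The part of neutrophil genes in the Rsph3b values was not tested.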

How the data were processed

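Gene levels are FPKM, deposited by the authors in 1 table of 13642 genes for 3 young and 3 old libraries of sorted bone marrow plasma cells. The submitters' processing notes list the tools bcl2fastq 2.17, STAR and DESeq2, with no role for any, and as builds GRCm38 and mm10. The counting tool, the annotation, the strand setting and the treatment of reads that fit several genes are not given in the sources used here. Groups come from the sample titles.

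Coordinates, exon lengths and sequences were taken from GENCODE M21 on GRCm38, to which 99.9% of the identifiers (13627) matched without the version number. The identifiers of all 4 members carry an earlier version in the table than in M21, so the lengths behind the FPKM may differ. Approximate reads were derived from the steps of low FPKM values and the merged exon lengths. The steps were sought within a preset range, which bounds the depths that could be found. They are estimates, PCR copies are not independent molecules, and no count model was run.

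Groups were compared by a two-sided limma fit (limma 3.58.1, R 4.3.3) of log2(FPKM + 1) with trend, over genes with a mean of at least 1 FPKM. Calls needed an adjusted p (Benjamini-Hochberg) under 0.05. The fit was also run on simulated data with large changes and the same spread for every gene. The genes here do not share such a spread, so that run does not vouch for the fit on these libraries. Log2 differences are old minus young. Copies were aligned with Biopython 1.88, and tables were made with pandas 2.3.3, numpy 2.4.6 and scipy 1.17.1 under Python 3.11.15. Close pairs were planned on RefSeq proteins and were found from translated GENCODE coding sequences instead.

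Named beside the 4 members were the genes of smallest p, up to 4, in each of 4 lists, the 3 genes nearest to each member in level over the libraries, the neighbours on the chromosome and the 5 close pairs of widest share range, ties ordered by mean sum. Of these, 1 list gene is not reported here. The members and lists were chosen with earlier results of these data known. Alternatives were other pseudocounts, filters and scalings, a replicate block, other ways to form a share, and leaving out each library.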

Additional observations from a re-analysis of the deposited data

How the results depend on the processing

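Rnaset2a stayed higher in old and Rsph3a lower in old with both other pseudocounts, both other scalings and without each single library. Both genes were chosen on this contrast and their groups do not overlap. Another pseudocount or a dropped library therefore could not turn their direction, and only the size of the difference could change. Filters and the replicate block were run for the count of genes called alone. For Rnaset2a the log2 difference, 4.74, was 5.65 with a pseudocount of 0.1 FPKM and 4.44 to 5.11 without single libraries, and for Rsph3a it was -5.41 to -3.63 without single libraries. The Rnaset2 sum gave 2.46 to 4.12 and the Rsph3 sum -3.65 to -1.23. Differences in share, 57.9 points for Rnaset2 and -34.5 for Rsph3, became 82.3 and -75.3 over the summed FPKM of a group, and without single libraries lay between 44.6 and 82.3 and between -66.7 and -17.2. For Rnaset2b and Rsph3b the direction rested on single libraries. Over all genes limma called 0, with 632 at an unadjusted p under 0.05, of which 498 were higher and 134 lower in old. Quantile normalization gave 1 call, Hist1h3f, and leaving out single libraries gave 0 to 7. The 7, of 10709 genes tested, came without young replicate 3, and 1 came without young replicate 1. Rnaset2a was among the 7, but it was chosen on this contrast, so its call is no test and nothing is read from it. The cause of these changes in the number of calls was not tested. The replicate block gave 0 calls, with 571 at an unadjusted p under 0.05, but the numbers do not pair the libraries: the deviations of same-numbered young and old libraries over all genes correlated at -0.0344, 0.0203 and -0.00412 for numbers 1, 2 and 3. The median log2 difference of all genes, 0.23, was 0.135 with libraries scaled by median ratio and -0.0104 with quantile-normalized values. Levels of a few reads, and any level of a single copy, are limited by depth and by the shared sequence.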
